A study of Mus musculus with 378 samples.

Results

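The 7 genes described here encode the receptor for the cytokine IL-27 and the signalling proteins behind it. They are the receptor chain genes Il27ra and Il6st, the kinase genes Jak1 and Jak2, the transcription factor gene Stat3, and the feedback inhibitor genes Socs1 and Socs3. They were chosen by name, and each of the 7 had a row among the 23420 genes of the expression table. The study is about the T cell genes that respond to IL-27 inside a tumour. It profiled T cells of B16F10 melanoma, a mouse tumour line grown in C57BL/6 mice, by Smart-seq2, which reads full-length cDNA of single cells. The groups were CD8 T cells from mice labelled Il27ra KO, CD8 T cells from WT mice, CD4 T cells from mice labelled Il27ra KO, and CD4 T cells from WT mice. Of 92, 94, 94 and 94 single-cell libraries in those groups, 74, 67, 78 and 79 had at least 1000 genes above 0 FPKM (the table's unit, reads scaled by transcript length and library size) and were kept out of 374 in all. Each group also had 1 population library. All 4 groups came from tumour-bearing mice of 1 strain. Neither the deleted stretch of Il27ra nor the number or age of the mice is given in the sources used here, and the labels do not say which cells share a mouse, so each group counts as 1 sample. Its cells are not replicates, no test between groups was possible, and the SDs given are over cells. The labels' protocol text speaks of CD8 cells only, so the CD4 identity rests on the titles and on lineage genes, and the WT CD4 titles carry p3 where the other 3 groups carry p2.

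IL-27 is a cytokine made of the products of Il27 and Ebi3 and is released mainly by antigen-presenting cells. It binds a receptor of IL-27Rα, encoded by Il27ra, and the shared chain gp130, encoded by Il6st, which also serves IL-6, LIF, oncostatin M and IL-11. The chains carry JAK kinases that phosphorylate STAT proteins, STAT3 among them, and STAT proteins switch on Socs1 and Socs3, whose products shut the pathway down again. In T cells IL-27 is known for inducing IL-10 and inhibitory receptors.

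The lineage genes followed the titles. At least 1 CD8 chain gene was above 0 in 97.3% of CD8 cells labelled KO, 94.03% of WT CD8, 37.2% of CD4 cells labelled KO and 30.4% of WT CD4 cells. Cd4 was detected in 2.70%, 8.96%, 89.7% and 79.7% of those cells. Medians of 2797, 2919, 2650.5 and 2307 genes were above 0 per cell, and depth estimated from the steps of low values gave medians of 590539, 441490, 573590 and 314657 reads. The common scale of these estimates rests on annotated transcript lengths, so they serve to compare cells. Quartiles were 412109 and 792898 reads in CD8 cells labelled KO and 242135 and 1072126 reads in WT CD8 cells, the widest spread of the 4 groups. B2m, which almost every nucleated cell expresses, was at 0 in 0 cells of either KO-labelled group, 8 WT CD8 cells and 6 WT CD4 cells. The population libraries also held RNA of other cells. Class II antigen presentation genes summed to 20736 FPKM in the CD8 library labelled KO and 158.1 FPKM in the WT CD8 library, and melanoma genes to 45.9 FPKM in the CD8 library labelled KO and 14613 FPKM in the WT CD8 library. In CD4 the class II sums were 5193 and 7481 FPKM in the libraries labelled KO and WT, and macrophage and monocyte genes summed to 3799 FPKM in the library labelled KO and 1405 FPKM in the WT library. In such a library fewer cells of a type and less RNA per cell cannot be told apart.

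The share of cells with Il27ra RNA and its mean level were not lower in single cells labelled Il27ra KO, so the gene named in the label did not separate the genotypes in the direction of the label. It was above 0 in 39 of 74 CD8 cells labelled KO (52.7%, exact 95% interval 40.7 to 64.4%) and in 26 of 67 WT CD8 cells (38.8%, 27.1 to 51.5%). In CD4 it was above 0 in 41 of 78 cells labelled KO (52.6%, 40.9 to 63.99%) and in 38 of 79 WT cells (48.1%, 36.7 to 59.6%). These intervals overlap for all 6 pairs of groups, and like every interval here they cover counting error only. A single value per gene cannot show which exons were read. Every genotype below is therefore the one on the label, and every direction rests on that label. Il27ra lies on the minus strand at chr8:84030294-84042589 (GRCm38, GENCODE M21, as for the genes below), where its exons overlap only Palm3, by 2 bases, and Palm3 was above 0 in 0 cells of either KO-labelled group, 2 WT CD8 cells and 1 WT CD4 cell.

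The group that stood apart in Il27ra level was WT CD8. Among cells above 0 the median was 107.5 FPKM in CD8 cells labelled KO and 18.2 FPKM in WT CD8 cells, and it was 88.2 FPKM in CD4 cells labelled KO and 106.9 FPKM in WT CD4 cells. The lowest cell was at 0 in each group, and the highest was at 553 FPKM in CD8 labelled KO, 331.4 FPKM in WT CD8, 1899 FPKM in CD4 labelled KO and 604 FPKM in WT CD4. Above 100 FPKM it was found in 20, 3, 19 and 20 cells of those groups, so high values were few in WT CD8 alone. Mean log2(FPKM + 1) was 3.25 ± 3.43 in CD8 cells labelled KO and 1.57 ± 2.36 in WT CD8 cells (SD over cells), a difference of 1.68 that ran from 1.05 to 2.43 over 11 other ways of processing. In CD4 it was 3.24 ± 3.34 in cells labelled KO and 3.02 ± 3.41 in WT cells, a difference of 0.22 whose sign did not hold throughout (-0.21 to 0.54). The number of genes found per cell moved with Il27ra in WT CD8. There, cells with Il27ra had a median of 3685 genes and cells without it 2553 genes, against 2844 and 2784 genes in CD8 cells labelled KO. After thinning every cell to 100000 estimated reads, Il27ra was found in 49.5% of CD8 cells labelled KO, 33.3% of WT CD8, 49.8% of CD4 labelled KO and 51.1% of WT CD4 cells, with 1, 12, 0 and 8 shallower cells left out. The population libraries gave 90.8 FPKM in CD8 labelled KO and 47.6 FPKM in WT CD8, but 95.2 FPKM in CD4 labelled KO and 255.97 FPKM in WT CD4. The CD4 population pair thus had less Il27ra under the KO label, a log2 difference of -1.42, and in CD4 single cells the median above 0 and the thinned share were also slightly lower under that label. The marker sums above moved with these libraries, and their part in the result was not tested.

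**Figure D1:**
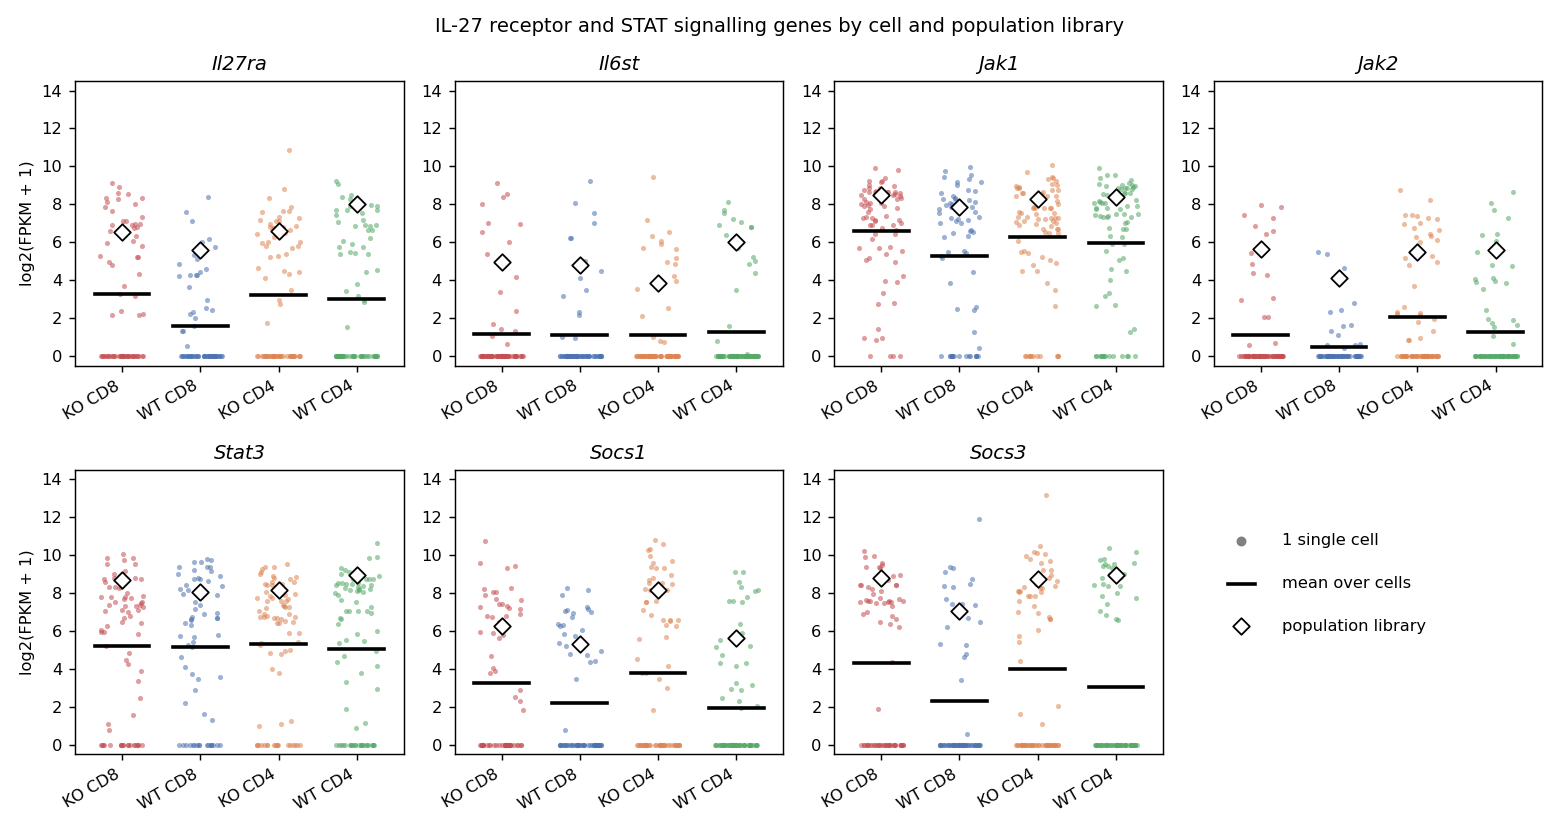
Level of each of the 7 genes, as log2(FPKM + 1), in the kept single cells (points), their mean (bar) and the population library (diamond) of CD8 cells labelled Il27ra KO, WT CD8, CD4 labelled KO and WT CD4, from left to right. Means of Il27ra are 3.25, 1.57, 3.24 and 3.02, and many cells of every gene but Jak1 and Stat3 lie at 0.

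Il6st, the gp130 chain, was found in nearly the same share of cells everywhere. Cells above 0 were 18 of 74 CD8 cells labelled KO (24.3%), 16 of 67 WT CD8 (23.9%), 19 of 78 CD4 labelled KO (24.4%) and 19 of 79 WT CD4 cells (24.1%). The mean of log2(FPKM + 1) lay between 1.11 ± 2.27 in CD4 labelled KO and 1.29 ± 2.58 in WT CD4. No 2 neighbours in the order of its 4 means were more than 0.12 apart, against SDs of 2.27 to 2.58 over cells. The population libraries differed more, with 30.4 FPKM in CD8 labelled KO and 27.2 FPKM in WT CD8, and 13.7 FPKM in CD4 labelled KO and 64.3 FPKM in WT CD4. The low value in CD4 labelled KO was a log2 difference of -2.15 from WT. In single cells the CD4 difference had the same sign but was smaller, -0.18 (-0.90 to -0.07 over 11 alternatives). There the shares were alike, while the median among cells above 0 was 30.4 FPKM in CD4 labelled KO and 77.6 FPKM in WT CD4. Il6st lies on the plus strand at chr13:112464070-112510086.

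Few cells held RNA of both receptor chains. Il27ra and Il6st were above 0 together in 7 of 74 CD8 cells labelled KO (9.46%), 7 of 67 WT CD8 (10.4%), 11 of 78 CD4 labelled KO (14.1%) and 6 of 79 WT CD4 cells (7.59%). The product of the shares of the 2 genes would give 12.8%, 9.27%, 12.8% and 11.6%, gaps too small to tell apart at these numbers of cells. Neither chain was found in 24 CD8 cells labelled KO (32.4%), 32 WT CD8 (47.8%), 29 CD4 labelled KO (37.2%) and 28 WT CD4 cells (35.4%). Adding Jak1 and Stat3 left 6, 6, 10 and 5 cells in which both chains, this kinase and this STAT gene were all above 0. A gene at 0 in a single cell may have been missed, so these are shares with detected RNA.

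Jak1, the kinase gene, was the most widely detected of the 7. Detection was in 70 of 74 CD8 cells labelled KO (94.6%, 86.7 to 98.5%), 51 of 67 WT CD8 (76.1%, 64.1 to 85.7%), 67 of 78 CD4 labelled KO (85.9%) and 65 of 79 WT CD4 cells (82.3%). The CD8 pair was the only one among all pairs of groups and all 7 genes whose intervals did not overlap. Mean log2(FPKM + 1) was 6.59 ± 2.67 in CD8 labelled KO and 5.30 ± 3.55 in WT CD8, a difference of 1.29 that ran from 0.29 to 1.89 over 11 alternatives. Among cells above 0 the means were close, 6.97 in CD8 labelled KO and 6.96 in WT CD8. The 16 WT CD8 cells at 0 held few genes, with a median of 1496.5 genes, against 2992 genes in WT CD8 cells with Jak1. Without cells lacking B2m or the Cd3 genes the CD8 difference was 0.48. Thinning left out 1 CD8 cell labelled KO and 12 WT CD8 cells with fewer than 100000 estimated reads. In the cells left, Jak1 was found in 94.5% of CD8 labelled KO and 89.1% of WT CD8 before thinning. After thinning it was found in 90% and 85% of them in that order, so most of the change in the WT CD8 share came with leaving out shallow cells. In CD4 the means were 6.30 ± 2.96 in cells labelled KO and 5.96 ± 3.34 in WT cells. Population levels were 359.1 FPKM in CD8 labelled KO and 235.3 FPKM in WT CD8, and 310 FPKM in CD4 labelled KO and 333.8 FPKM in WT CD4. Jak1 lies on the minus strand at chr4:101152367-101265282 and shares 4 exon bases with Raver2.

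Jak2, the second kinase gene, was rarer and was highest in CD4 cells labelled KO. Values above 0 occurred in 17 of 74 CD8 cells labelled KO (22.97%), 14 of 67 WT CD8 (20.9%), 33 of 78 CD4 labelled KO (42.3%) and 24 of 79 WT CD4 cells (30.4%). WT CD8 cells again held low values. Among cells above 0 the median was 28.3 FPKM in CD8 labelled KO and 2.08 FPKM in WT CD8. In WT CD8 that median was worth about 4.00 estimated reads, and 0 cells of the group exceeded 100 FPKM. In CD4 these medians were 42.4 FPKM in cells labelled KO and 14.9 FPKM in WT cells. On the log2(FPKM + 1) scale means were 1.09 ± 2.33 and 0.46 ± 1.199 in CD8 labelled KO and WT, and 2.06 ± 2.90 and 1.29 ± 2.35 in CD4 labelled KO and WT, differences of 0.63 and 0.77. Over the alternatives these ran from 0.24 to 2.65 in CD8 and from 0.42 to 1.16 in CD4. The population level was 48.8 FPKM in CD8 labelled KO and 16.4 FPKM in WT CD8, and 43.8 FPKM in CD4 labelled KO and 46.5 FPKM in WT CD4, so the WT CD8 library was the lowest there too. Jak2 lies on the plus strand at chr19:29251828-29313080.

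Stat3, which encodes the transcription factor downstream of gp130, had close shares and close means in all 4 groups. Stat3 RNA was found in 74.3% of CD8 cells labelled KO, 74.6% of WT CD8, 76.9% of CD4 labelled KO and 70.9% of WT CD4 cells. Means of log2(FPKM + 1) were 5.19 ± 3.599, 5.17 ± 3.61, 5.34 ± 3.39 and 5.03 ± 3.74 in that order of groups, so the 4 means spanned 0.30. In WT CD8, cells with Stat3 had a median of 3350 genes and cells without it 1366 genes. Without cells lacking B2m or the Cd3 genes Stat3 was above 0 in 89.3% of WT CD8 cells, and the CD8 difference became -1.01, lower in cells labelled KO. The near-equal CD8 means therefore rest on including 3 KO-labelled and 11 WT CD8 cells that lack those genes. Population levels were 405 FPKM in CD8 labelled KO and 268.01 FPKM in WT CD8, and 284.9 FPKM in CD4 labelled KO and 491 FPKM in WT CD4. Stat3 lies on the minus strand at chr11:100885098-100939540, and 72 of its exon bases overlap Stat5a, which was above 0 in 27.8% to 37.2% of cells across the groups.

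**Figure D2:**
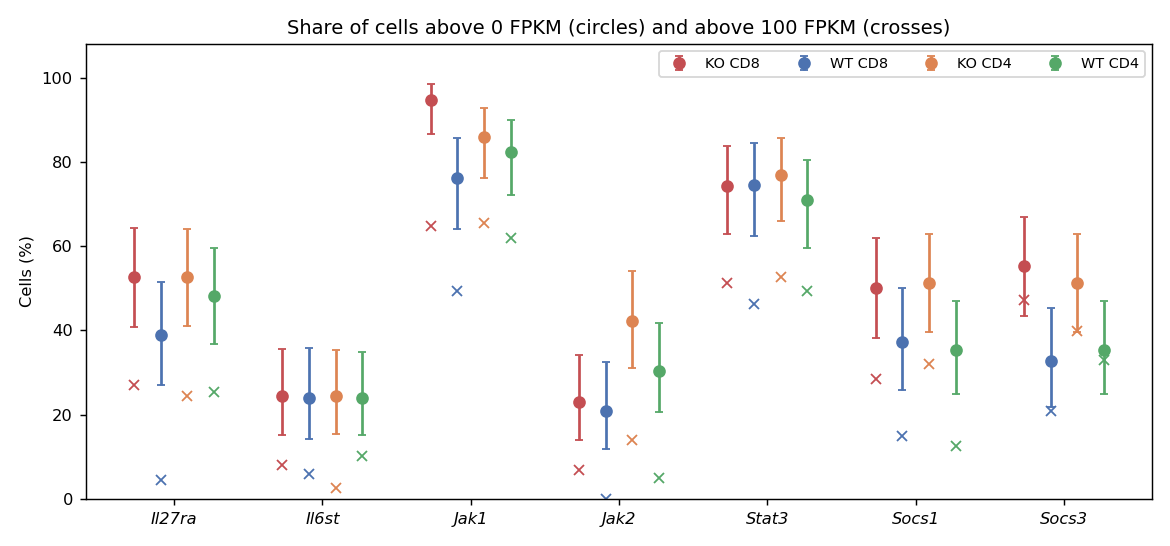
Share of kept cells above 0 FPKM (circles, with exact 95% intervals for counting error) and above 100 FPKM (crosses) for each gene, in percent, for CD8 cells labelled Il27ra KO, WT CD8, CD4 labelled KO and WT CD4. Il6st circles sit between 23.9% and 24.4% in every group, while the Il27ra cross of WT CD8 lies at 4.48%, below 24.4% to 27.03% in the other 3 groups.

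Socs1 and Socs3, the feedback genes, were both higher in single cells labelled KO. On the log2(FPKM + 1) scale Socs3 had the largest difference of the 7 in CD8 and Socs1 in CD4. In CD8 that order depended on the processing, since in matched cells Socs3 was at 0.97, below 1.80 for Il27ra and 1.19 for Jak1, and by the log2 of mean FPKM it was at 0.56, below 2.58 for Jak2 and 2.10 for Il27ra. SOCS1 blocks JAK kinases, and SOCS3 binds JAKs together with the gp130 chain. The promoter windows of both genes are shown because these are the 2 members known as STAT target genes. They come from RefSeq (GRCm38.p6) and run from 250 bases before to 50 bases after the RefSeq start site, on the minus strand, at chr16:10785487-10785786 for Socs1 and chr11:117969317-117969616 for Socs3. The Socs3 window lies inside the GENCODE span of that gene, whose 5′ end is at 117970047, so RefSeq and GENCODE place its start differently. Capitals mark matches to GAAANNGAAA in Socs1, the core of elements bound by interferon regulatory factors, and to TTCNNNGAA in Socs3, the core bound by STAT dimers.
Socs1: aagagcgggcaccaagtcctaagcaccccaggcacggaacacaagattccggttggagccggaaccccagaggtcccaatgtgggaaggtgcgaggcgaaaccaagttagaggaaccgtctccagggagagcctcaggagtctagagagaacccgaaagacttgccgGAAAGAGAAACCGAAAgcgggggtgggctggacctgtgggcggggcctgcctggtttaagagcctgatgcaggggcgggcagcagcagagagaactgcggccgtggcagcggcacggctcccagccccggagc
Socs3: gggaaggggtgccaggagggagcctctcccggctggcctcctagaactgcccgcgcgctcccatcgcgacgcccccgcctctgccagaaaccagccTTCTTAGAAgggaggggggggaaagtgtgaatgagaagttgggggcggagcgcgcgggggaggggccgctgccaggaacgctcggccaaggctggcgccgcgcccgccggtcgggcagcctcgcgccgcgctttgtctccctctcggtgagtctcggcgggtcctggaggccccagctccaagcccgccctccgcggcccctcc
The Socs3 window holds 1 match, TTCTTAGAA. The Socs1 window holds 2 matches that overlap, GAAAGAGAAA from 83 to 74 and GAAACCGAAA from 77 to 68 bases before the start. On either strand, TTCNNNGAA occurs in 8.30% of 32851 mouse promoter windows of this length, TTCNNNNGAA in 6.95%, either of them in 14.6%, and GAAANNGAAA in 3.44%. The last pattern was added after the values were seen. None of the 3 patterns occurs in the windows of Il6st, Jak1, Jak2 and Stat3, and 6 of the 7 genes had a window. A match is a description of letters and not a measured binding site.

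Socs1 was higher in cells labelled KO in both T cell types, most in CD4. It was above 0 in 37 of 74 CD8 cells labelled KO (50%, 38.1 to 61.9%) and 25 of 67 WT CD8 cells (37.3%, 25.8 to 49.99%). In CD4 it was above 0 in 40 of 78 cells labelled KO (51.3%, 39.7 to 62.8%) and 28 of 79 WT cells (35.4%, 25 to 47.01%). These intervals overlap, and the levels differed more than the shares. Among cells above 0 the median was 236.9 FPKM in CD4 labelled KO and 40.6 FPKM in WT CD4, and 110.9 FPKM in CD8 labelled KO and 76.9 FPKM in WT CD8. Mean log2(FPKM + 1) in CD4 was 3.79 ± 4.05 in cells labelled KO and 1.95 ± 2.99 in WT cells, a difference of 1.83 that stayed between 1.23 and 2.37 over 11 alternatives. In CD8 it was 3.26 ± 3.59 in cells labelled KO and 2.21 ± 3.06 in WT cells, a difference of 1.04 that ran from 0.65 to 1.53. After thinning, Socs1 was found in 47.2% of CD8 cells labelled KO, 40.9% of WT CD8, 48.8% of CD4 labelled KO and 32.01% of WT CD4 cells. As for Il27ra, 1, 12, 0 and 8 shallower cells were left out. The population libraries had the same directions, with 76.3 FPKM in CD8 labelled KO and 39.2 FPKM in WT CD8, and 285.9 FPKM in CD4 labelled KO and 48.1 FPKM in WT CD4. The gene lies on the minus strand at chr16:10782240-10785536.

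Socs3 was also higher in single cells labelled KO, and there most in CD8. It was above 0 in 41 of 74 CD8 cells labelled KO (55.4%, 43.4 to 66.98%) and 22 of 67 WT CD8 cells (32.8%, 21.8 to 45.4%). In CD4 it was above 0 in 40 of 78 cells labelled KO (51.3%, 39.7 to 62.8%) and 28 of 79 WT cells (35.4%, 25 to 47.01%). The CD8 intervals overlap only at their ends. Mean log2(FPKM + 1) was 4.34 ± 4.07 in CD8 labelled KO and 2.30 ± 3.58 in WT CD8, a difference of 2.04 that ran from 0.56 to 2.80 over the alternatives. In CD4 it was 3.98 ± 4.26 in cells labelled KO and 3.07 ± 4.21 in WT cells, a difference of 0.91 that ran from -0.24 to 1.72. Single cells weighed on the mean FPKM. It was 183.98 FPKM in CD8 labelled KO and 124.3 FPKM in WT CD8, and without the highest cell of each group 170.5 and 69.04 FPKM in that order. In CD4 it was 312.2 FPKM in cells labelled KO and 178.03 FPKM in WT cells, and without the highest cells, of which the KO-labelled one stood at 9210 FPKM, 196.7 and 163.3 FPKM in that order. In CD4 the cells above 0 ran the other way, with a median of 272.2 FPKM in cells labelled KO and 484 FPKM in WT cells. Cells matched on the number of genes above 0 gave differences of 0.97 in CD8 and 0.89 in CD4. The population level was 446 FPKM in CD8 labelled KO and 131.5 FPKM in WT CD8, but 434 FPKM in CD4 labelled KO and 497 FPKM in WT CD4. The gene lies on the minus strand at chr11:117966079-117970047.

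A cell with at least 1 of the 2 SOCS genes was more frequent under the KO label. Such cells were 55 of 74 in CD8 labelled KO (74.3%, 62.8 to 83.8%) and 35 of 67 in WT CD8 (52.2%, 39.7 to 64.6%), and 52 of 78 in CD4 labelled KO (66.7%) and 46 of 79 in WT CD4 (58.2%). The CD8 intervals overlap at their ends. Those of CD4 overlap widely, at 55.1 to 76.9% in cells labelled KO and 46.6 to 69.2% in WT cells. The 2 genes met in single cells unevenly between groups. In CD4 cells labelled KO, Socs3 was above 0 in 28 of 40 cells with Socs1 (70%, 53.5 to 83.4%) and 12 of 38 without it (31.6%, 17.5 to 48.7%). In WT CD4 it was above 0 in 10 of 28 cells with Socs1 (35.7%) and 18 of 51 without it (35.3%). In WT CD8 it was above 0 in 12 of 25 cells with Socs1 (48%) and 10 of 42 without it (23.8%). In CD8 labelled KO these shares were 62.2% and 48.6% in that order. WT CD4 was thus the group in which the shares lay closest, and the unevenness did not follow the KO label. Whether this pattern differs between groups was not tested.

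In CD8 the mean of each of the 7 genes was higher in cells labelled KO, where 42.9% of all genes compared were higher, and 4 of them, Il27ra, Jak1, Socs1 and Socs3, were so by at least 1 log2 unit, the threshold used throughout. The sign held in all 11 alternatives for Il27ra, Jak1, Jak2, Socs1 and Socs3, but in 8 for Il6st (-0.29 to 0.60) and in 4 for Stat3 (-1.01 to 0.49). Of the 9031 genes compared, which 10% or more of one group's cells held above 0, 9.76% differed by that much, 5.94% higher and 3.82% lower. The median difference of the 7 was 1.04, beside -0.08 over those 9031 genes. Genes outside the pathway moved too. Of 6 T cell genes (Cd3d, Cd3e, Cd3g, Cd2, Cd5 and Lck) 5 were higher and 1 lower, with a median of 0.33. At least 1 unit apart were 1 of the higher and 1 of the lower. B2m was higher by 1.90. The count was 2 of 7 with a pseudocount of 10, with at least 2000 genes per cell, without cells holding the other coreceptor and in cells matched on genes above 0. The 2 past 1 unit after matching, which was 1 random draw of 47 cells a group, were Il27ra and Jak1, and Socs3 lay just below it. Which genes pass can thus turn on the draw and the threshold. Without cells lacking B2m or the Cd3 genes, the difference of Jak1 was under 1 unit and that of Stat3 was -1.01. Between the CD8 population libraries all 7 were again higher under the KO label, as were 52.02% of the 9031 genes. By at least 1 unit 2 of them were higher, Jak2 and Socs3, against 15.5% of those genes, and the median of the 7 was 0.92 beside 0.04. The single-cell and population counts thus share Socs3 alone. RNA of 3 or more markers of macrophages, dendritic cells or class II presentation was found in 12 of 74 CD8 cells labelled KO and 4 of 67 WT CD8 cells. Without those cells the CD8 differences were 1.74 for Il27ra, 1.49 for Jak1 and 1.82 for Socs3, while that of Jak2 was 0.24.

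In CD4 the 7 genes gave no common direction. In single cells 6 of 7 were higher under the KO label, as were 66.7% of all genes compared, but Socs1 alone by at least 1 unit, where 8.07% of 8176 genes differed by that much, 7.73% higher and 0.342% lower. Their median was 0.34, beside 0.17 over all those genes, and the sign turned in 3 of 11 alternatives for Il27ra, 4 for Jak1, 5 for Stat3 and 1 for Socs3. Between the population libraries 6 of 7 were lower under the KO label, as were 54.7% of all genes. By at least 1 unit 2 of them were lower, Il27ra and Il6st, against 14.8% of genes. Socs1 was higher there by 2.55, past the threshold with 9.89% of genes. The median of the 7 was -0.19, beside -0.09. Socs1 was the only member at least 1 unit higher under the KO label in CD4 by both kinds of library.

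**Figure D3:**
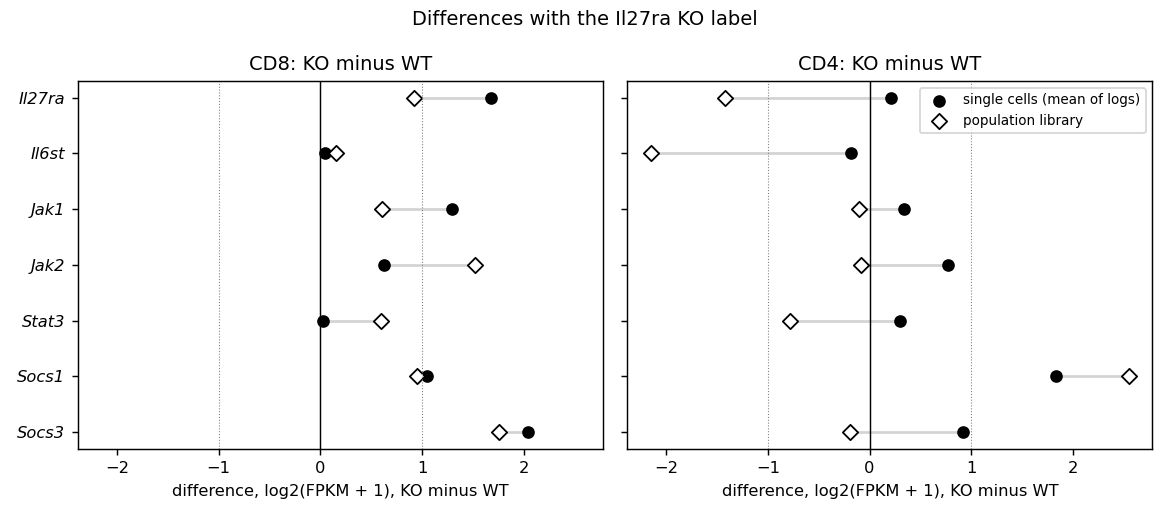
Difference in log2(FPKM + 1), KO label minus WT, for each gene in CD8 and CD4, from single cells (filled circles, difference of means over cells) and from the population libraries (diamonds); dotted lines mark 1 log2 unit. In CD8 the 7 circles and the 7 diamonds lie at or above 0.02, while in CD4 the diamonds run from -2.15 for Il6st to 2.55 for Socs1.

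Set by T cell type, the largest gap between WT groups was in Il27ra. WT CD8 cells had a mean of 1.57 and WT CD4 cells 3.02, a difference of -1.45, and 1 of the 7 genes was past 1 unit, against 2.08% of 8961 genes lower and 14.1% higher. Jak2 at -0.83 and Socs3 at -0.77 were the next lowest, and Stat3 at 0.13 and Socs1 at 0.26 were the 2 genes with the higher mean in WT CD8. Of all 8961 genes 76.7% had the higher mean in WT CD8, and their median difference of 0.33 was above both of these values. Between the WT population libraries all 7 were lower in CD8 than in CD4, as were 52.1% of all genes. By at least 1 unit 4 of them were lower (Il27ra, Il6st, Jak2 and Socs3), against 20.3% of genes. Under the KO label 0 of the 7 genes were 1 unit apart in single cells, where 7.70% of 8473 genes were higher in CD8 and 2.79% lower. The nearest was Jak2, with 1.09 in CD8 and 2.06 in CD4, a difference of -0.97. Il27ra differed by 0.01 there.

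The number of the 7 genes found per cell had a median of 4 in CD8 cells labelled KO, 3 in WT CD8, 4 in CD4 labelled KO and 4 in WT CD4. Cells with none of the 7 numbered 0 in both KO-labelled groups, 9 in WT CD8 and 5 in WT CD4. All 7 were found in 0 CD8 cells of either label, 3 CD4 cells labelled KO and 1 WT CD4 cell. Set against the product of their shares, most pairs lay close to it, but the intervals of a joint share are too wide to show that 2 genes were independent. The share of cells with one gene was also compared between cells with and without the other, and in 4 of 84 pairs by group those intervals did not overlap, each time with the 2 genes more often together. They were Jak1 and Stat3 in WT CD8, Socs1 and Socs3 in CD4 labelled KO, and Il27ra with Jak1 and Jak1 with Jak2 in WT CD4. In WT CD8, Stat3 was above 0 in 88.2% of cells with Jak1 (76.1 to 95.6%) and 31.3% of cells without it (11.02 to 58.7%), and in that group cells at 0 for either gene had fewer genes. In WT CD4, Jak1 was above 0 in 97.4% of cells with Il27ra (86.2 to 99.9%) and 68.3% of cells without it (51.9 to 81.9%). Jak1 and Stat3 in WT CD8 also had the widest gap above the product, with 45 of 67 cells holding both (67.2%) and a product of 56.8%. The widest gap below it was Il27ra with Socs3 in CD8 cells labelled KO. There Socs3 was above 0 in 17 of 39 cells with Il27ra (43.6%, 27.8 to 60.4%) and 24 of 35 without it (68.6%, 50.7 to 83.1%). Jak2 went the other way in that group, with Socs3 in 14 of 17 cells with Jak2 (82.4%) and 27 of 57 without it (47.4%).

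**Figure D4:**
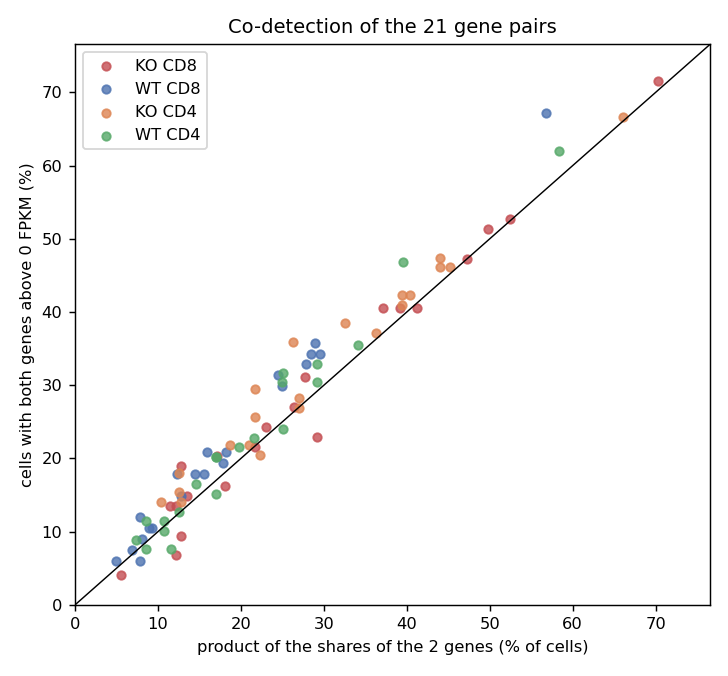
Cells with both genes of a pair above 0 (vertical, percent) against the product of the shares of the 2 genes (horizontal, percent) for the 21 pairs of the 7 genes in each of the 4 groups; the line marks equality. Points lie near the line, with Jak1 and Stat3 in WT CD8 at 67.2% against 56.8%.

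Levels of the 7 genes were weakly related from cell to cell. Averaged over the 4 groups, Spearman's rho for pairs of them ran from -0.04 for Il27ra with Il6st to 0.23 for Il27ra with Jak1, over 67 to 79 cells a group that share depth as a source of likeness. Among 3612 genes detected in 20% or more of each group's cells, those most like each member had mean rho values of 0.23 to 0.39. The median over all of them was 0.01 to 0.13 and the 99th percentile 0.17 to 0.32, depending on the member. The highest of so many values lie above the median by selection. Il27ra was most like Ubash3a, a suppressor of T cell receptor signalling (0.31), Cd6, a T cell surface receptor (0.31), and Nfyb, a CCAAT-box binding subunit (0.31). Il6st was most like the cytokine receptor chain gene Il2rb (0.26), Zfp36l1 and Cd27 (0.23 each). Jak1 was nearest to Tpt1 and to the translation factor genes Eef1a1 and Eif4a2 (0.32 each), and Jak2 to the G protein subunit gene Gnb2 (0.32), Rpl41 (0.29) and Sept2 (0.28). Groups could differ behind such a mean. Tpt1 with Jak1 ran from 0.03 in CD4 labelled KO to 0.59 in WT CD8, and Gnb2 with Jak2 only from 0.28 to 0.36. For Stat3 the nearest were Pdcd1, which encodes PD-1 (0.39), B2m (0.39) and Ndfip1 (0.38). Socs1 was most like Tap1, a peptide transporter of antigen presentation (0.32), the guanylate-binding protein gene Gbp4 (0.30) and the proteasome activator gene Psme1 (0.27). Socs3 was most like Junb, an AP-1 subunit (0.31), Btg1 (0.30) and Ppp1r15a (0.28).

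The other genes of the pathway were mixed in direction in CD8 single cells and mostly higher under the KO label between the CD8 population libraries. Of 8 related receptor chain genes 4 were in enough CD8 cells to compare, 3 higher and 1 lower under the KO label, with a median of 0.60. Over all genes compared in CD8 single cells 42.9% were higher, with a median of -0.08. Il12rb2, a chain of the IL-12 receptor, was above 0 in 28 of 74 CD8 cells labelled KO and 5 of 67 WT CD8 cells, a difference of 2.00, while Il12rb1, the partner chain, was above 0 in 9 cells labelled KO and 22 WT cells, a difference of -1.21 that was 0.05 between the population libraries. There 4 of 4 receptor chain genes were higher, with a median of 1.26 beside 0.04 over all genes, of which 52.02% were higher. Of 7 other JAK and STAT genes compared 5 were higher and 2 lower, with a median of 0.11. Stat4, which acts behind the IL-12 receptor, differed by 1.24 and Stat6, behind the IL-4 receptor, by 1.03. Tyk2, a kinase gene of the JAK family, differed by -0.59 and Stat2, which acts behind interferon receptors, by -0.24. In the population pair 7 of 7 were higher, with a median of 0.60, and Stat2 was at 1.49. Of 14 of 16 other feedback genes 6 were higher and 8 lower, with a median of -0.11, both near the values over all genes. Ptpn6, the phosphatase SHP-1, differed by 1.73, and Usp18, a brake on interferon receptors, by 1.21. The lowest were the PIAS family genes Pias4 at -0.50 and Pias3 at -0.47. In the population pair 10 of the 14 were higher and 4 lower, with a median of 0.78.

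Genes known as STAT3 targets held both some of the highest and some of the lowest differences named in CD8. Of 12 such genes 10 were compared, 3 higher and 7 lower under the KO label, where 57.1% of all genes were lower, with a median of -0.26 beside the -0.08 of all genes. The highest were the AP-1 gene Junb, at 9.86 ± 3.32 in CD8 cells labelled KO and 6.12 ± 4.55 in WT CD8 cells, a difference of 3.74, and the kinase gene Pim1, a difference of 1.34. The lowest were Il10, above 0 in 1 cell labelled KO and 13 WT cells (-1.18), and the transcription factor gene Maf, above 0 in 5 and 16 cells in that order (-1.10). The population libraries differed in this, with 6 of those 10 genes higher and 4 lower under the KO label and a median of 0.69 beside 0.04. Of all genes 52.02% were higher between those libraries. Among ligand genes 3 of 11 could be compared, with Clcf1 at 1.27 and Il11 at -0.31. Il27 itself was above 0 in too few cells of either label.

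Of the 12 STAT3 target genes 11 were compared in CD4 and 10 were higher under the KO label, where 66.7% of all genes were. Of these 2 were so by 1 unit, against 7.73% of genes, and the median was 0.53 beside 0.17. Between the population libraries 7 were higher and 4 lower, where 54.7% of all genes were lower, with a median of 0.15 beside -0.09. The highest were the survival gene Bcl2l1 at 1.69, which was -0.40 between the population libraries, and Pim1 at 1.41, and the 1 lower gene was Prdm1 at -0.41. Of the 7 other JAK and STAT genes 4 were higher and 3 lower, with a median of 0.20 beside 0.17 over all genes. Jak3, the kinase gene behind the common gamma chain receptors, was the highest at 1.36, then Stat5a at 0.93, and Stat6 at -0.81 and Tyk2 at -0.28 were the lowest. Between the population libraries 2 of these 7 were higher and 5 lower, with a median of -0.23, and Jak3 at -0.41 and Stat5a at -0.13 were among the lower.

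Of the other feedback genes 13 were compared in CD4, 10 higher under the KO label and 3 lower, a share near the 66.7% over all genes. By at least 1 unit 4 were higher, against 7.73% of genes, with a median of 0.39 beside 0.17. Cish, a SOCS family gene induced by STAT5, was above 0 in 61 of 78 cells labelled KO and 39 of 79 WT cells, with means of 6.98 ± 4.38 and 4.15 ± 4.67 in that order, a difference of 2.84. Socs4 differed by 1.25 and Pias2 by -0.81. Between the population libraries 5 were higher and 8 lower, where 54.7% of all genes were lower. The median was -0.09, the same as over all genes, and Socs4 was at -0.35. Related receptor chain genes gave a median of 0.16 over 4 genes, with Il12rb1 highest at 0.59. The ligand genes gave a median of 0.13 over 5 genes, and Osm, which encodes oncostatin M, was above 0 in 11 CD4 cells labelled KO and 0 WT CD4 cells. The WT CD4 population library did hold Osm, at 129.9 FPKM, beside 394 FPKM in the CD4 library labelled KO. Ebi3, a subunit of IL-27, was above 0 in 14 cells labelled KO and 16 WT cells. At least 1 of 7 macrophage and monocyte markers was above 0 in 15 of 78 CD4 cells labelled KO and 11 of 79 WT CD4 cells, and at least 3 in 2 and 0 of them in that order. C1qa was at 0 in every CD4 cell labelled KO and Csf1r in every WT CD4 cell, and the part of such RNA in these results was not tested. Socs1 stayed at least 1 unit higher with cells holding 3 macrophage, class II or dendritic cell markers left out.

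**Figure D5:**
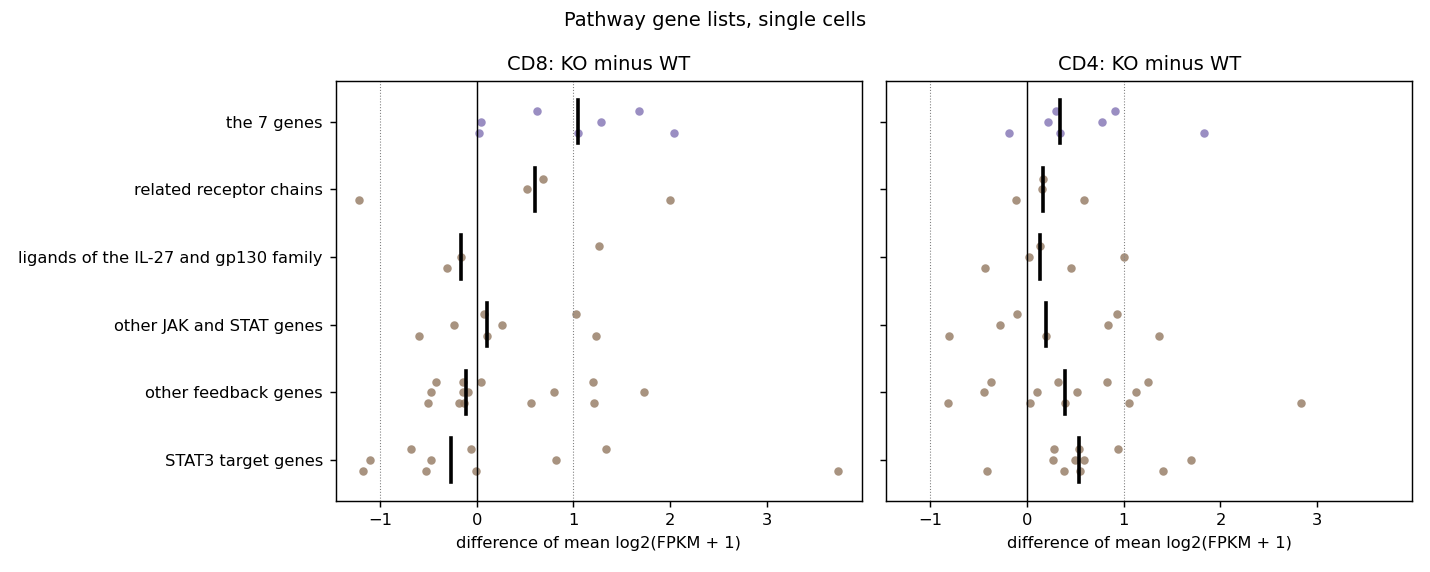
Difference of mean log2(FPKM + 1), KO label minus WT, for the 7 genes and for the compared genes of 5 pathway lists (points), with the median of each list (bar), in CD8 and CD4 single cells; dotted lines mark 1 log2 unit. The 7 genes have a median of 1.04 in CD8 and 0.34 in CD4, and the STAT3 target genes -0.26 in CD8 and 0.53 in CD4.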

How the data were processed

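Single-cell and population Smart-seq2 libraries of tumour T cells were measured, with cDNA amplified over 21 cycles and no molecular identifiers described, per the labels' protocols. Values are FPKM as deposited, estimated by the authors with Bowtie and RSEM on mm10, per the submitters' processing notes without versions, and TMM-scaled across libraries, which the labels' file description states. No source used here gives their annotation. RSEM shares reads between similar transcripts. The table's 0 unmapped columns left all 378 libraries in use.

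Cells with at least 1000 genes above 0 were kept, and no doublet caller was run, since cells were processed in separate wells. Group means of log2(FPKM + 1) were taken over cells (pseudocount 1) and subtracted. Such a difference follows the share of cells above 0 and understates low genes. A difference counted from 1 log2 unit, among genes that 10% or more of one group's cells held above 0. With 1 sample per group there is no p-value. Shares carry exact Clopper-Pearson 95% intervals. Reads per library were estimated from the steps of low FPKM values of 1600 genes, where 68.9% of low values (median over cells) came within 0.1 of a whole number, and were tested on simulated data. The 7 genes and the lists were chosen with earlier results of these data known. A listed gene and a list that rests on it are not reported here. Named beyond the 7 were the 2 genes of each pathway list furthest either way and the 3 genes most like each member. B2m, Palm3 and Rln3 were added for quality or position. Python 3.11.15, pandas 2.3.3, NumPy 2.4.6, SciPy 1.17.1 and matplotlib 3.10.9 were used.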

Additional observations from a re-analysis of the deposited data

Results flagged for a closer look

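Between the population libraries 6 of the 7 genes, all but Socs1, had opposite signs of the log2 difference, KO label minus WT, in CD8 and in CD4. With 1 library per group these differences between the T cell types were not tested. Il27ra was 0.92 in CD8 and -1.42 in CD4. Il6st was 0.15 in CD8 and -2.15 in CD4. Jak1 was 0.61 in CD8 and -0.11 in CD4. Jak2 was 1.52 in CD8 and -0.084 in CD4. Stat3 was 0.59 in CD8 and -0.78 in CD4. Socs3 was 1.75 in CD8 and -0.19 in CD4. In single cells Il6st alone had opposite signs, 0.044 in CD8 and -0.18 in CD4. Melanoma genes summed to 45.9 FPKM in the CD8 population labelled KO and 14613 FPKM in WT CD8, and to 37.5 FPKM in CD4 labelled KO and 85.7 FPKM in WT CD4. The part of such RNA in the signs was not tested.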

How the results depend on the processing

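No gene's difference that was past 1 log2 unit turned round under any alternative, while 43 differences, 24 shares and 22 of 44 counts moved by more than the allowed spread. The count of the 7 genes at least 1 unit apart between the KO label and WT, 4 in CD8, was 2 with a pseudocount of 10, with at least 2000 genes, without the other coreceptor and in matched cells; the CD8 difference of Il27ra with a pseudocount of 10 was 1.05. In CD4 that count, 1 in the report, was 3 with a pseudocount of 0.1 and 2 with at least 2000 genes. Between WT CD8 and WT CD4 it was 1, but 0 with a pseudocount of 10, 3 with the mean FPKM without the highest cell of each group, and 2 with a pseudocount of 0.1, with the mean FPKM, with every library, with at least 500 or 2000 genes, without the other coreceptor and in matched cells. Between CD8 and CD4 labelled KO it was 0, but 3 without the highest cells, 2 without the other coreceptor, and 1 with a pseudocount of 0.1, at least 2000 genes, no cells lacking B2m or Cd3 genes, no cells with 3 markers of other types, and matching. The alternative without the highest cell was chosen after seeing the data; the cause of these moves was not tested. No paired analysis was possible because each genotype and T cell type is 1 sample with no replicate numbers that match across groups. Depth limits Jak2 most: its median in WT CD8 cells above 0 was about 4.00 estimated reads.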

Other observations

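The 76 single-cell libraries with fewer than 1000 genes above 0 held little RNA of the pathway. Il27ra was above 0 in 2 of them (2.63%), Jak1 and Socs3 in 1 each (1.32%), and Il6st, Jak2, Stat3 and Socs1 in 0 of 76, which allows a share of up to 3.95%, counted as 3 libraries of 76.

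Rln3, which encodes a relaxin-family hormone, is the next annotated gene beyond the 5′ end of Il27ra, on the same strand in GENCODE M21, and was looked at for that position. It was above 0 in 2 of 74 CD8 cells labelled KO, 1 of 67 WT CD8, 12 of 78 CD4 labelled KO (15.4%, 8.21 to 25.3%) and 3 of 79 WT CD4 cells (3.80%, 0.79 to 10.7%). In the population libraries it was at 7.26 FPKM in CD8 labelled KO and listed at 0 in WT CD8, and at 135.9 FPKM in CD4 labelled KO and 21.6 FPKM in WT CD4. Its level was thus above that of WT in each KO-labelled population library.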
